A study of Mus musculus with 6 samples.

Results

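The lysosome is the acidic compartment in which cells break down proteins, glycans and lipids, and it is fed by endocytosis and autophagy. Its lumen is acidified by a rotary proton pump, the V-ATPase, and its enzymes reach it mostly through mannose 6-phosphate receptors and other sorting proteins. Many of its genes are switched on together by the TFE factors Tfeb, Tfe3 and Mitf, which bind an E-box element in the promoters of lysosomal genes (the CLEAR element) and are held in the cytoplasm when mTORC1 phosphorylates them at the lysosome surface. In the adult neural stem cell lineage, lysosomes are known to be abundant in quiescent stem cells, where they clear protein aggregates and receptors.

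The 34 genes described here are the 3 TFE factors and 31 lysosomal, proton pump and autophagy receptor genes, chosen by symbol from the 55487 rows of the deposited expression table. All 34 symbols were found once, and all 34 were among the 18227 rows with enough signal to be tested (a mean of at least 10 normalized reads over the libraries). RNA was sequenced from sorted cells of the mouse subventricular zone, the niche of adult neural stem cells along the lateral ventricles. The background strain was given as C57BL/6;Sv/129;FVB/N. All animals carried inducible NestinCreERT2, a Cre recombinase driven by the promoter of the stem cell gene Nestin, and an EYFP reporter at the R26 locus. They were 6 to 10 weeks old when tamoxifen was first given (200 mg/kg per day by gavage for 5 days), and tissue was collected 10 days after the last dose. The heterozygous group was E2F1(+/-);E2F3(F/+) and the knockout group E2F1(-/-);E2F3(F/F), with 3 libraries in each, lettered A to C. Each library pooled several mice to reach at least 200000 sorted reporter-positive cells, so the spread between libraries is a spread between pools. The sort takes the descendants of recombined cells along with the stem cells. The heterozygous group also received tamoxifen, already lacked 1 working E2f1 allele and carried 1 floxed E2f3 allele. The question in the series title is what activator E2F factors do for the quiescent and the activated state of adult neural stem cells.

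The libraries held 19798675 to 25982361 reads assigned to genes. E2f1 stood at 1152, 1388 and 1030 normalized reads in heterozygous A, B and C and at 375, 483 and 516 in the knockout libraries, a fall of 1.38 ± 0.22 on the log2 scale (SE, limma adjusted p = 0.00559), while E2f3 differed by 0.090 ± 0.28. Counts over a whole gene do not check the recombination of a floxed part. The libraries were not made of stem cells alone. By limma at an adjusted p under 0.05, 8.59% of all genes tested fell and 7.23% rose. All 12 neuroblast markers fell by limma (median log2 difference -3.18). Limma called 4 of 14 quiescent stem cell and astrocyte markers higher (median 0.66), edgeR 4 and DESeq2 8. It called 7 of 11 ependymal markers higher (median 1.61), edgeR 9 and DESeq2 10. Of 10 activated stem cell and progenitor markers 4 fell, the cell cycle genes Mki67, Top2a and Cdk1 and the progenitor factor Dlx2 (log2 differences -3.43, -2.82, -2.22 and -2.87), and the other 6 had positive differences. Of 6 pericyte and smooth muscle markers Pdgfrb rose by limma (16.7%, against 7.23% of all genes tested), while edgeR called 2 higher and DESeq2 3. All 6 differences were positive (median 0.98), but 5 had overlapping groups. Their sum was 32756, 26963 and 12132 in knockout A, B and C against 8616 to 17687 in the heterozygous libraries. All 12 endothelial markers had positive differences (median 1.02), of which 0 passed limma (2 at an unadjusted p under 0.05, 0 by edgeR, 4 by DESeq2), and their sum was 35095, 12972 and 4164 in knockout A, B and C against 5767 to 6338 in the heterozygous libraries. The ependymal sum was 81468, 49014 and 19185 in knockout A, B and C against 13460 to 15329 in the heterozygous libraries. Microglial markers, of which 0 of 15 passed limma (0 at an unadjusted p under 0.05, and 0 by edgeR, DESeq2 or the authors' deposited table), summed to 1826 to 8957 in heterozygous and 14718, 2420 and 1908 in knockout A, B and C. Every marker in these lists had reads in all 6 libraries: Csf1r, the microglial growth factor receptor, ranged from 430 to 1743 normalized reads in heterozygous and from 532 to 2232 in knockout libraries, and Foxj1, the master factor of motile cilia, from 693 to 866 and from 1725 to 5293. In bulk RNA of this kind, fewer cells of a type and less RNA per cell cannot be told apart.

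Promoter sequences are shown first, because the E-box is the letter pattern that the TFE factors are known to bind. RefSeq promoters on GRCm38.p6 (250 bases before to 50 bases after each start) were found for 30 of the 34 genes, in 38 entries. Atp6v1h, Ctsb, Ctsh and Npc1 had none. The palindromic E-box CACGTG, which reads the same on both strands, was present for 11 of the 30 genes (36.7%), against 8.09% of 27025 genes in the same table (7.15% of 32851 promoters). The longer core TCACGTGA, also a palindrome and containing the E-box, was present for 6 of 30 (20.0%), against 1.12% of genes (0.974% of promoters). A match is a description of the letters and not evidence of binding. The 8 windows that hold the longer core are shown here, 5′ to 3′ on the gene's strand, with the core in capitals. Distances to the start are those of the first base of the E-box. The starts are those of RefSeq, and the promoters shown for Ctsa and Cln3 lie inside the genes as annotated in GENCODE.

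Cln3, membrane protein, 121 bases before the start, minus strand of chr7:126583340-126583369: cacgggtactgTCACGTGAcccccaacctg
Ctsd, aspartic protease, 98 bases before the start, minus strand of chr7:142387908-142387937: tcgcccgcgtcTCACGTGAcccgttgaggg
Mcoln1, calcium channel, 45 bases before the start, plus strand of chr8:3500462-3500491: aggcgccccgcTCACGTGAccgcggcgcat
Atp6v0d1, proton pump subunit, 3 bases before the start, minus strand of chr8:105566050-105566079: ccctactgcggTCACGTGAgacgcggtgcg
Ctsa, serine carboxypeptidase, 12 bases before the start, plus strand of chr2:164833749-164833778: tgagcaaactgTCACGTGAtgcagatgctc
Ctsa, 6 bases after the start, plus strand of chr2:164833766-164833795: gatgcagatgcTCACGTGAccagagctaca
Gla, alpha-galactosidase, 227 bases before the start, minus strand of chrX:134601215-134601244: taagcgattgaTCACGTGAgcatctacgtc
Gla, 194 bases before the start, minus strand of chrX:134601182-134601211: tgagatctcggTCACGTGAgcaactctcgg

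Lamp1, which encodes a major glycoprotein of the lysosomal membrane, held 4 E-boxes and no longer core. They lie 61, 45, 28 and 15 bases before the start. Its whole promoter is shown with the E-boxes in capitals, because no other member had as many.

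Lamp1, plus strand of chr8:13158911-13159210: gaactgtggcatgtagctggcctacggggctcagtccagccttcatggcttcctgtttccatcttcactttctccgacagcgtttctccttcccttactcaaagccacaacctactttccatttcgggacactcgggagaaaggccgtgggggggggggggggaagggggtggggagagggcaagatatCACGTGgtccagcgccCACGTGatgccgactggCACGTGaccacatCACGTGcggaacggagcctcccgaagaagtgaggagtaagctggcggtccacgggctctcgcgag

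Ctsl, the protease gene that rose in the knockout libraries, held 1 E-box far from the RefSeq start, 236 bases before it. The promoter searched lies inside the gene as annotated in GENCODE. The annotated upstream end of the gene, at 64370890, was not searched.

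Ctsl, minus strand of chr13:64370739-64370768: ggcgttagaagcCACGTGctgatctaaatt

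The other E-boxes belonged to Ctsf, Gaa and Glb1 and to further sites of Cln3, Ctsd and Mcoln1. The 3 promoters listed for Tfeb held no E-box. Of the E2F site spellings TTTGGCGC, TTTCGCGC and TTTCCCGC, searched on both strands, the first was found for Atp6v0d1 alone and the other two for 0 of 30 genes, against 0.585%, 0.374% and 1.24% of all genes. The 11 genes with an E-box had a median log2 difference between genotypes of 0.18 (8 positive, 1 called higher). The 19 without one had a median of 0.44 (1 called higher). No test was made of that difference.

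In the fit over all genes, 2 of the 34 members rose, Tfeb and Ctsl, and 1 fell, Atp6v1h (limma on log2 of the normalized reads plus 1, Benjamini-Hochberg adjusted p under 0.05). Of all 18227 genes tested, 7.23% rose, 8.59% fell and 15.8% changed either way, so the share of members called (8.82%) was below that of all genes. Positive log2 differences were found for 27 of 34 members, against 52.3% of all genes, and the median was 0.32, against 0.046. Every knockout library lay above every heterozygous library for 12 members (18.5% of all genes) and below for 3 (20.2%). An unadjusted p under 0.05 was found for 13 members (33.4% of all genes). On the recovered reads edgeR called 2 members, Tfeb and Atp6v1h (16.0% of all genes tested with it), and DESeq2 called 7 (21.8%). No member passed limma without knockout B, heterozygous A or heterozygous B, and 4, 4 and 3 passed without heterozygous C, knockout A and knockout C. The median stayed positive without any 1 library, from 0.17 with 23 positive members without knockout C to 0.47 with 30 positive members without knockout A.

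**Figure D1:**
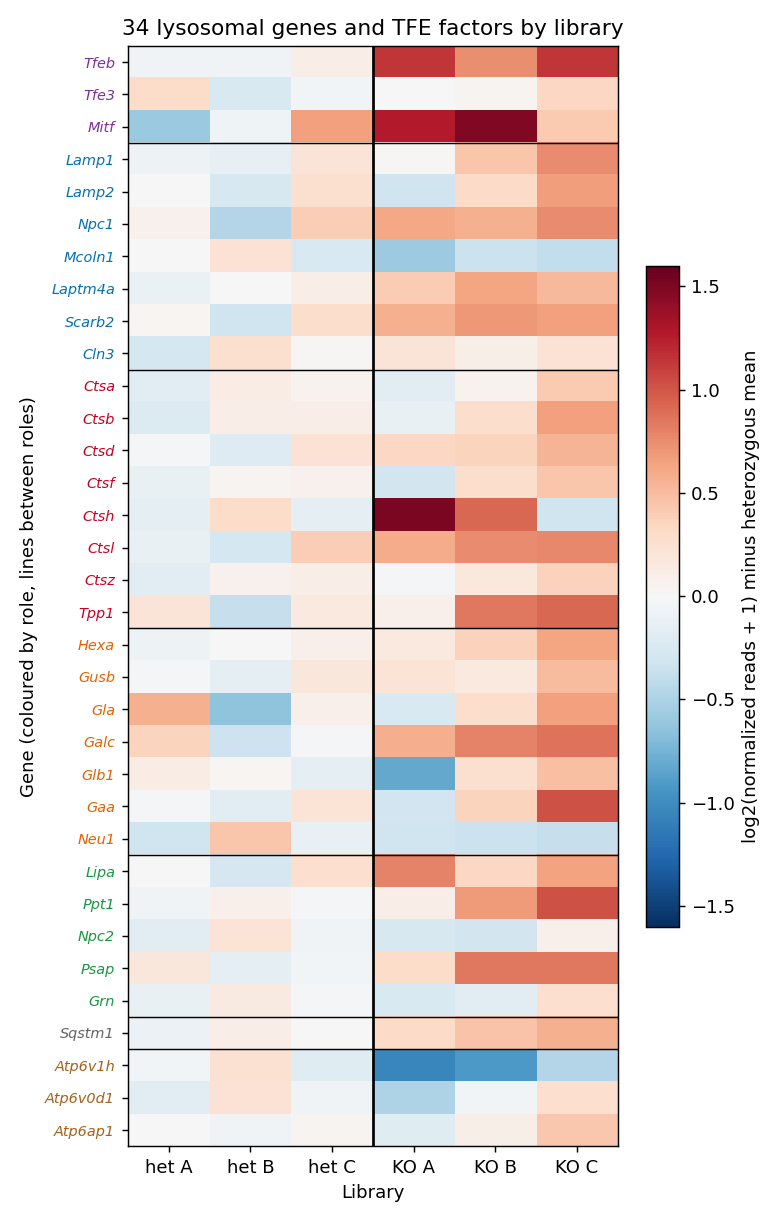
Each row is a member and each column a library. Colour gives log2(normalized reads + 1) minus the mean of the 3 heterozygous libraries, with red above and blue below that mean, and gene names are coloured by role. Tfeb is red in all 3 knockout libraries and Atp6v1h blue in all 3, while most enzyme rows are palest in knockout A and darkest in knockout C.

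The TFE factors came first. Tfeb (ENSMUSG00000023990, GRCm38 chromosome 17, 47737030 to 47792419, plus strand) stood at 366, 366 and 412 normalized reads in heterozygous A, B and C and at 840.2, 640.2 and 841 in knockout A, B and C. The groups were far apart, and the lowest knockout library was above the highest heterozygous one. The fold change was 2.01, a log2 difference of 1.01 ± 0.22 (SE, limma adjusted p = 0.0180; edgeR adjusted p = 0.0168). Leaving out heterozygous A, heterozygous B or knockout B took the adjusted p to 0.0657, 0.0657 and 0.0539, with differences of 0.98, 0.98 and 1.14.

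Tfe3, its close relative on chromosome X, stood at 1108, 762 and 881 in heterozygous A, B and C and at 913, 938 and 1144 in knockout A, B and C. The groups overlapped almost fully, with a log2 difference of 0.13 (95% interval -0.35 to 0.61, limma adjusted p = 0.697). Mitf, best known as the master factor of pigment cells, was low, at 22.2, 32.3 and 54.0 in heterozygous and 83.4, 96.2 and 45.5 in knockout A, B and C. Knockout C lay below heterozygous C, and the log2 difference of 1.06 had a wide interval of -0.10 to 2.21 (adjusted p = 0.183). Whether Tfeb and Tfe3 differed in their response was not tested.

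Per kilobase of exon, Tfe3 was the most abundant TFE factor in heterozygous cells, at a mean of 99.0 normalized reads per kilobase, before Tfeb at 67.3 and Mitf at 5.84. In knockout cells the means per kilobase were 136 for Tfeb, 108 for Tfe3 and 12.1 for Mitf. The order of Tfeb and Tfe3 there depends on the length used, that of all annotated exons together (5669 and 9261 bases). Without division by length, Tfe3 stayed above Tfeb in knockout cells, at means of 998 and 774 normalized reads. These are levels of RNA over the whole gene, and they say nothing of the phosphorylation or location of the proteins. The fourth relative, Tfec, was listed at 0 in all libraries.

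**Figure D2:**
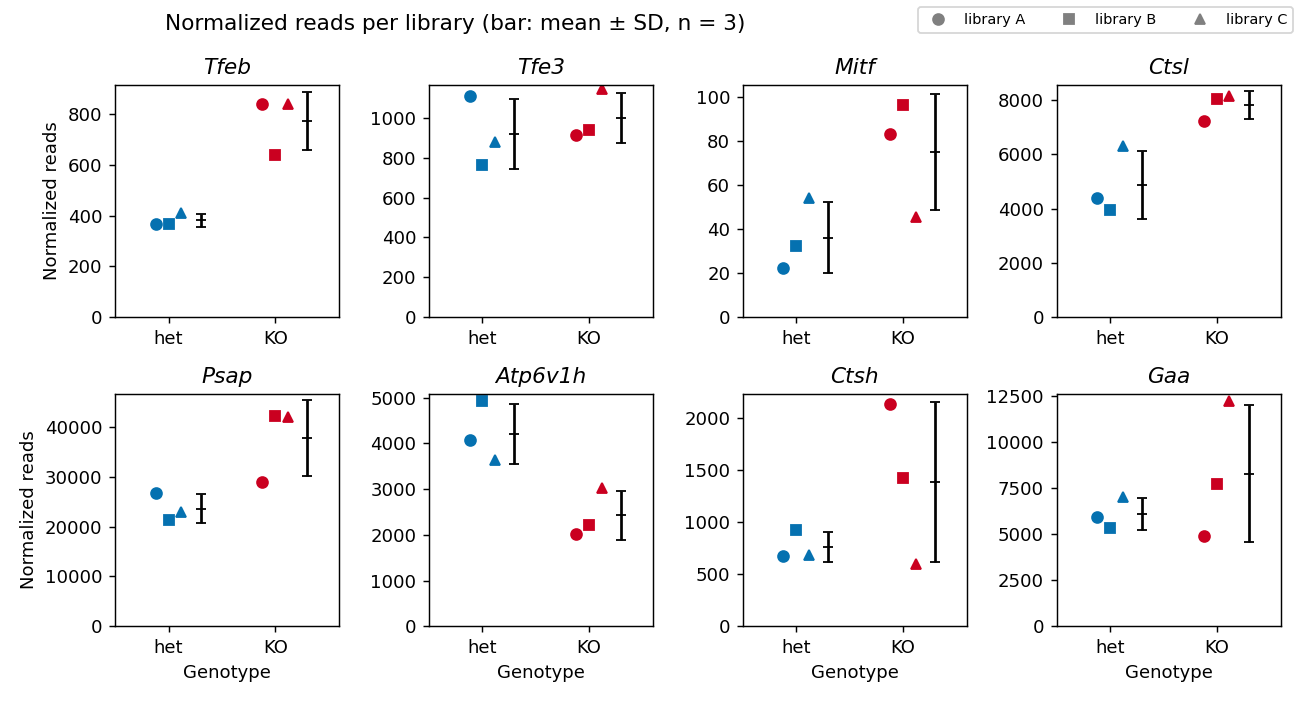
Each panel plots normalized reads on the vertical axis for 1 gene, with a symbol for each library and the mean ± SD (n = 3) beside each genotype. For Tfeb, Ctsl and Psap every knockout symbol lies above every heterozygous one, for Atp6v1h every one lies below, and for Ctsh and Gaa the knockout libraries spread widely (3.55-fold and 2.51-fold between the highest and the lowest).

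Of the 8 proteases 1 rose by limma (0 by edgeR) and 7 did not pass, where 7.23% of all genes tested rose by limma. All 8 log2 differences were positive, with a median of 0.34, and relative to the heterozygous mean the median over the 8 was 0.034, 0.32 and 0.49 in knockout A, B and C. Ctsl, the cysteine protease cathepsin L (ENSMUSG00000021477, chromosome 13, 64359337 to 64370890, minus strand), stood at 4388, 3946 and 6303 in heterozygous A, B and C and at 7225, 8041 and 8154 in knockout A, B and C. All knockout libraries were above heterozygous C, the highest of the controls. The fold change was 1.63, a log2 difference of 0.71 ± 0.21 (SE, limma adjusted p = 0.0487). This call was at the edge: edgeR gave adjusted p = 0.0607, and over the fits that left out 1 library the limma adjusted p was 0.0266 without heterozygous C and at or above 0.0568 without any other.

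Tpp1, a tripeptidyl peptidase mutated in a childhood neuronal ceroid lipofuscinosis, stood at 4920, 3308 and 4745 in heterozygous and 4520, 7648 and 8062 in knockout A, B and C. Knockout A lay among the controls, and the log2 difference was 0.62 ± 0.26 (SE, limma adjusted p = 0.133). Without knockout A it was 0.88 (adjusted p = 0.0318). Ctsd, the aspartic protease cathepsin D, had means of 8745 ± 1339 and 11568 ± 964 normalized reads (SD, n = 3 per genotype), with knockout above heterozygous in all libraries but a log2 difference of 0.41 that did not pass (adjusted p = 0.157).

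Per kilobase of exon the highest protease genes were Ctsz, at 4098 normalized reads per kilobase in heterozygous and 4639.7 in knockout cells, and Ctsd, at 3720 and 4921. Ctsb, the cysteine protease cathepsin B, had means of 20817 ± 2562 and 25691 ± 6820 (SD, n = 3 per genotype), a log2 difference of 0.28 with an interval of -0.26 to 0.81. Ctsa, Ctsf and Ctsz had differences of 0.096, 0.14 and 0.18, and their groups overlapped. Ctsh, the aminopeptidase cathepsin H, varied most between the knockout libraries. It stood at 676, 926 and 685 in heterozygous and at 2139, 1425 and 602 in knockout A, B and C, so knockout C lay below all controls. Its log2 difference was 0.70 (limma adjusted p = 0.251), and it was 1.21 without knockout C (adjusted p = 0.00745). The ependymal, endothelial and microglial sums also had their highest knockout value in A and their lowest in C, and their part in the Ctsh values was not tested.

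Glycosidases held 5 of 7 positive differences, 0 calls (limma; 1 at an unadjusted p under 0.05, 0 by edgeR with TMM scaling, and 1 by DESeq2 and in the authors' deposited table) and a median of 0.29. Galc, the galactosylceramidase that degrades myelin lipids, stood at 632, 393 and 485 in heterozygous and 738, 860.1 and 906 in knockout A, B and C. The groups did not overlap, and the log2 difference of 0.75 ± 0.24 narrowly missed (SE, limma adjusted p = 0.0584). Oligodendrocyte lineage markers, which include myelin genes and of which 0 of 11 passed limma (5 at an unadjusted p under 0.05, 0 by edgeR, 1 by DESeq2), summed to 48971 to 70637 in heterozygous and 76209 to 95393 in knockout libraries, and their part in the Galc values was not tested.

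Hexa, the alpha subunit of beta-hexosaminidase, had no overlap between groups, with means of 2580 ± 146 and 3403 ± 556 (SD, n = 3 per genotype) and a log2 difference of 0.39 (interval -0.022 to 0.80). Gaa, the acid alpha-glucosidase that degrades glycogen, stood at 5908, 5330 and 7036 in heterozygous and at 4880, 7748 and 12230 in knockout A, B and C. Its knockout libraries lay on both sides of the controls. Glb1, beta-galactosidase, did the same, with 673, 1422 and 1656 in knockout A, B and C against 1070 to 1298 in heterozygous libraries. Its log2 difference was -0.031, and its sign was positive in edgeR, in DESeq2 and in the authors' deposited table. Gusb and Gla had differences of 0.29 and 0.23, with overlapping groups. Neu1, the lysosomal sialidase, was lower in all knockout libraries (1035, 1019 and 1003) than in any heterozygous one (1038, 1752 and 1189), though knockout A and heterozygous A nearly met, and its difference of -0.34 did not pass (adjusted p = 0.311).

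Genes of lipid handling and saposins held 3 positive differences of 5 with a median of 0.59. None of the 5 passed limma (3 at an unadjusted p under 0.05, 0 by edgeR with TMM scaling, 1 by DESeq2, and 2 in the authors' deposited table). Psap, which encodes the precursor of the saposin activators of lipid hydrolases, stood at 26773, 21296 and 22847 in heterozygous and at 28961, 42320 and 42053 in knockout A, B and C. All knockout libraries were above the controls, with knockout A close to heterozygous A, and the log2 difference was 0.66 ± 0.23 (SE, limma adjusted p = 0.0756). For Psap the log2 change in the authors' deposited table was 0.68 (adjusted p = 0.0199).

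Ppt1, a palmitoyl thioesterase, stood at 7378, 8141 and 7513 in heterozygous and at 8245, 12306 and 15499 in knockout A, B and C. The groups did not overlap but the knockout spread was broad, and the log2 difference was 0.60 ± 0.24 (SE, limma adjusted p = 0.112). Without knockout A it was 0.85 (adjusted p = 0.0239). Lipa, the acid lipase that frees cholesterol from its esters, stood at 480.2, 398 and 582 in heterozygous and at 833, 605 and 749.8 in knockout A, B and C. The groups did not overlap, and the log2 difference was 0.59 ± 0.24 (SE, limma adjusted p = 0.116). Npc2, a luminal cholesterol carrier, and Grn, the progranulin gene, had differences of -0.16 and -0.054 with overlapping groups. Grn stood at 3038, 3186 and 4347 in knockout A, B and C. It is known to be strong in microglia, whose marker sum was 14718, 2420 and 1908 in the same libraries, and the part of that sum in the Grn values was not tested.

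Membrane protein genes held 6 of 7 positive differences and a median of 0.41. None passed limma (4 at an unadjusted p under 0.05, 0 by edgeR, and 2 by DESeq2 and in the authors' deposited table). Scarb2, the receptor that carries beta-glucocerebrosidase to the lysosome, stood at 2430, 1907 and 2900 in heterozygous and at 3522, 3834 and 3756 in knockout A, B and C. Its knockout libraries were close together and all above the controls, with a log2 difference of 0.64 ± 0.20 (SE, limma adjusted p = 0.0537). Npc1, the cholesterol exporter of the lysosomal membrane, stood at 1202, 829.9 and 1502 and at 1751, 1694 and 1927 in the same order, also without overlap (0.64 ± 0.23, SE, limma adjusted p = 0.0893).

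Laptm4a, a small transmembrane protein, had the highest level per length of all members in both genotypes, at 9817 normalized reads per kilobase in heterozygous and 14077 in knockout cells. Its libraries read 16152, 17381 and 18683 in heterozygous and 23101, 26921 and 24856 in knockout A, B and C. The groups did not overlap, and the log2 difference was 0.52 ± 0.18 (SE, limma adjusted p = 0.0824). Psap followed in heterozygous cells at 8615 per kilobase and Lamp1 at 7318. Lamp1 and Lamp2, the main structural glycoproteins, had differences of 0.41 and 0.22 with overlapping groups, and for both knockout C was the highest library. Cln3 had a difference of 0.18.

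Mcoln1, whose promoter held the longer core, encodes the calcium channel whose opening is known to activate Tfeb through calcineurin. Its difference had the opposite sign. It stood at 3303, 3867 and 2766 in heterozygous and at 2196, 2581 and 2499 in knockout A, B and C. Every knockout library was below every control, with a log2 difference of -0.44 ± 0.19 (SE, limma adjusted p = 0.136), which did not pass. Sqstm1, the p62 receptor that carries ubiquitinated cargo into autophagosomes, stood at 10281, 11778 and 10958 in heterozygous and at 13576, 15097 and 16323 in knockout A, B and C. The groups were separate, and the difference was 0.44 ± 0.18 (SE, limma adjusted p = 0.114).

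**Figure D3:**
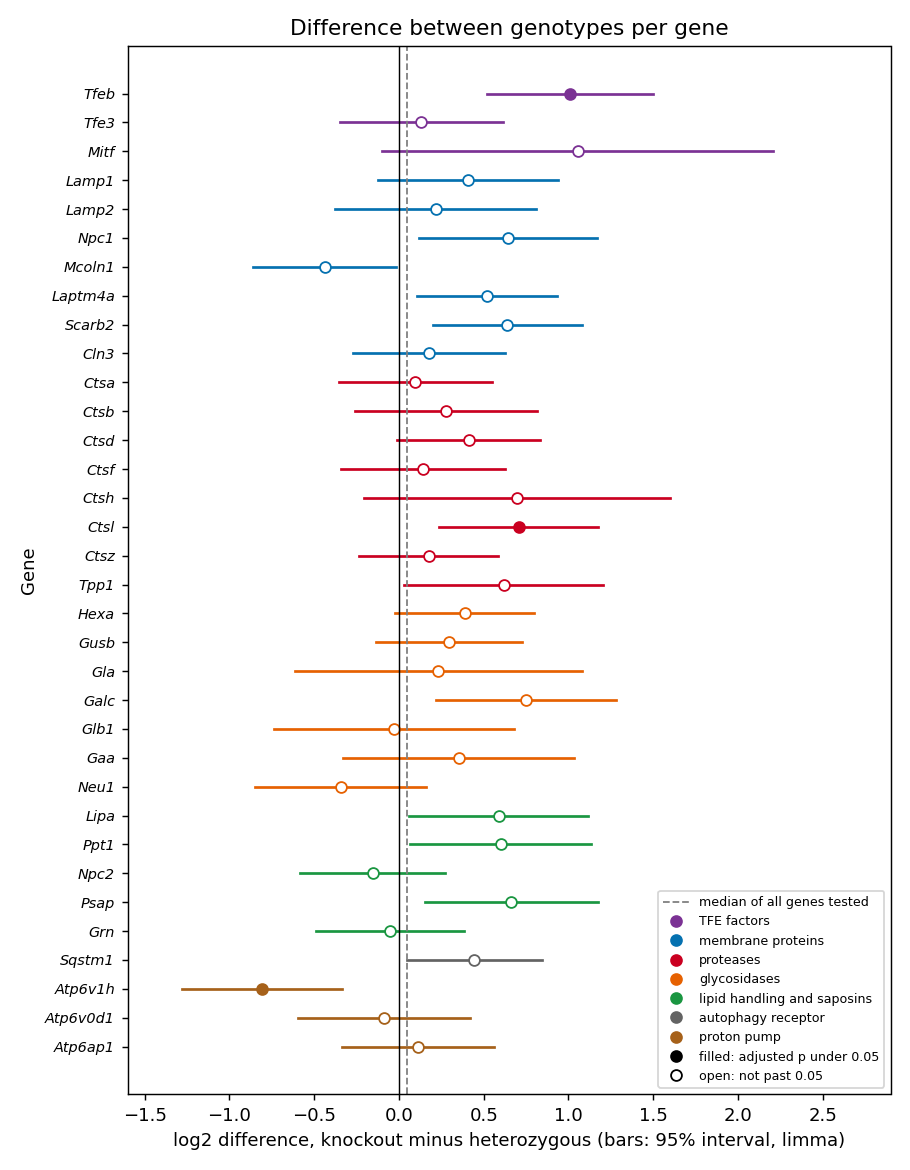
Points give the log2 difference, knockout minus heterozygous, for each member, with bars for the 95% interval from limma and colours for roles. Filled points passed an adjusted p of 0.05 and the dashed line is the median of all genes tested. Tfeb and Ctsl are filled to the right and Atp6v1h to the left, and most open points lie between 0 and 0.75.

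Of the 3 proton pump genes 1 fell by limma (8.59% of all genes tested fell) and 1 had a positive difference, with a median of -0.088. Atp6v1h, the regulatory subunit H of the cytosolic V1 sector (ENSMUSG00000033793, chromosome 1, 5070018 to 5162529, plus strand), stood at 4065, 4931 and 3646 in heterozygous and at 2028, 2220 and 3027 in knockout A, B and C. Every knockout library lay below every control. It fell 1.75-fold, with a log2 difference of -0.81 ± 0.21 (SE, limma adjusted p = 0.0330; edgeR adjusted p = 0.0335). Without heterozygous A, heterozygous B, knockout A or knockout B the differences were -0.83, -0.69, -0.69 and -0.75, and the adjusted p was 0.0919, 0.118, 0.0691 and 0.142.

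Atp6v0d1, a subunit of the membrane V0 sector, and Atp6ap1, an accessory protein of the pump, had differences of -0.088 (interval -0.59 to 0.42) and 0.11 (interval -0.34 to 0.56), with knockout A the lowest library and knockout C the highest for both.

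The libraries of a genotype also differed among themselves, and the members tended to shift together. Knockout C was the highest knockout library for 26 of 34 members and knockout A the lowest for 25. The same counts were not made over all genes, so this order cannot be called particular to the members. Relative to the heterozygous mean, the median log2 value over the members was 0.051, 0.32 and 0.53 in knockout A, B and C and -0.056, -0.025 and 0.076 in heterozygous A, B and C. Over the 145 further lysosome and autophagy genes described below, that median was -0.052, 0.022 and 0.21 in knockout A, B and C. The median over the quiescent stem cell and astrocyte markers was 0.37, 0.79 and 0.92 in knockout A, B and C, and that over the neuroblast markers -3.33, -3.47 and -2.74. The part of these marker shifts in the lysosomal values was not tested. All members together took 0.925% to 1.15% of normalized reads in the knockout libraries and 0.754% to 0.882% in the heterozygous ones. The median coefficient of variation between libraries was 14.3% in heterozygous and 18.3% in knockout cells for the members, against 22.8% and 24.1% for all genes tested.

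**Figure D4:**
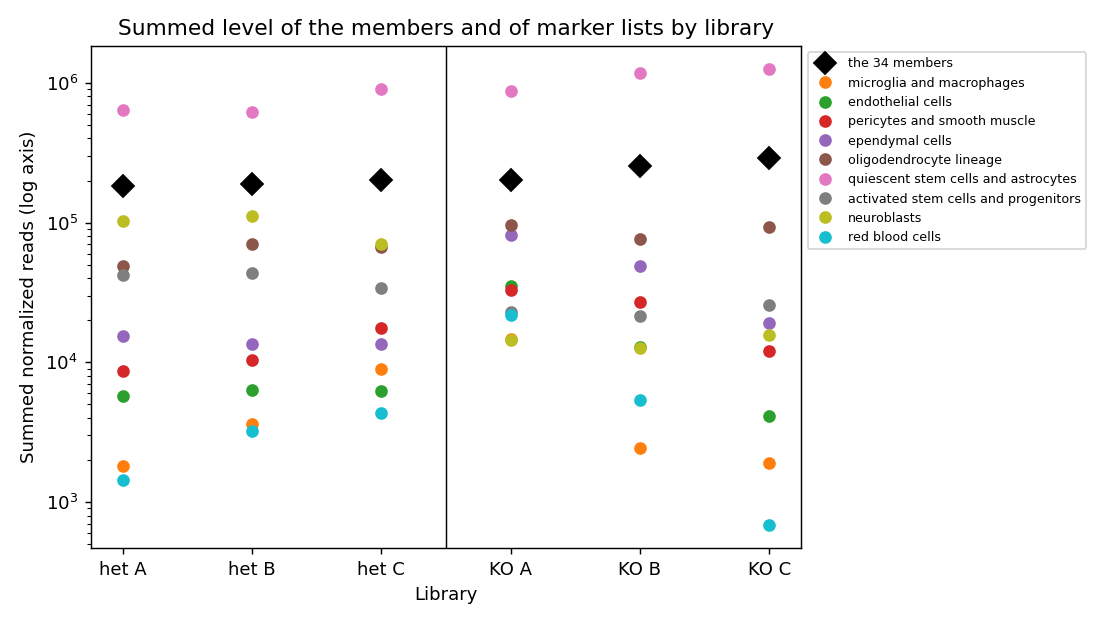
The vertical log axis gives the summed normalized reads of each list in each library, with black diamonds for the 34 members and circles for marker lists of cell types. The member sums are 183944 to 201330 in heterozygous and 200866, 253738 and 289844 in knockout A, B and C. Endothelial, ependymal, microglial and red blood cell sums are highest in knockout A.

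Further genes of the pathway were read from lists of textbook members. In 145 such genes, 137 of them tested, 8 rose and 1 fell by limma, with a median of 0.11. The share called was 6.57%, against 15.8% of all genes tested. It was 10.0% for hydrolases, 12.5% for membrane proteins, 5.88% for pump subunits, 4.35% for TFE regulators, 8.33% for sorting and 0% for autophagy. Medians were positive for the enzymes and membrane proteins and negative for the pump, and the lists were not tested against each other.

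Among 30 tested further hydrolases and activators 3 rose and none fell, and 26 differences were positive (median 0.30). Sgsh, a sulfatase of heparan sulfate breakdown, stood at 118, 82.3 and 141 in heterozygous and 231, 215 and 259 in knockout A, B and C. The groups did not overlap, and the log2 difference was 1.07 ± 0.32 (SE, limma adjusted p = 0.0498). Its call was lost in all 6 fits without 1 library and in edgeR (adjusted p = 0.0604).

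Among 24 further membrane proteins 3 rose and none fell by limma, with 18 positive (median 0.18). They were Cd63, a tetraspanin of late endosomes (means of 13333 ± 1929 and 21472 ± 1127, SD, n = 3 per genotype, log2 difference 0.70, limma adjusted p = 0.0379), Tpcn1, an endolysosomal cation channel (0.81, adjusted p = 0.0367), and Abca2, a lipid transporter (0.77, adjusted p = 0.0324). Each of the 3 was called in 1 or 2 of the 6 fits that left out a library.

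Among 17 tested further V-ATPase subunits 1 rose and none fell by limma, 11 differences were negative and the median was -0.15. Tcirg1, the a3 form of the membrane subunit a, stood at 704, 953 and 867 in heterozygous and 1408, 1442 and 1434 in knockout A, B and C, with a log2 difference of 0.77 ± 0.19 (SE, limma adjusted p = 0.0279). It kept its call in the fits without knockout A or knockout C. DESeq2 and the authors' deposited table each called 2 subunits lower. Atp6v1b2 and Atp6v0c, singled out after their values were seen, had log2 differences of -0.74 (limma adjusted p = 0.0530) and -0.60 (adjusted p = 0.0602), with every knockout library below every control.

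Of 23 tested genes that control the TFE factors through mTORC1, folliculin and calcineurin, 1 rose and none fell by limma (edgeR and DESeq2 gave the same numbers), and the median was -0.14. Mtor, the kinase itself, stood at 714, 503 and 734 in heterozygous and 1056, 1063 and 1118 in knockout A, B and C, a log2 difference of 0.75 ± 0.21 (SE, limma adjusted p = 0.0435). The groups did not overlap, but the call was lost in each of the 6 fits without 1 library (adjusted p from 0.0572 to 0.151).

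Of 12 sorting genes 1 fell and none rose by limma. It was Gga2, an adaptor that loads mannose 6-phosphate receptors at the Golgi, at 2245, 2362 and 1561 in heterozygous and 889.6, 834 and 1126 in knockout A, B and C. Its log2 difference was -1.10 ± 0.22 (SE, limma adjusted p = 0.0145), and the call was lost without knockout B, heterozygous A or heterozygous B. Among the sorting genes edgeR called 1 higher and 1 lower, and DESeq2 and the authors' deposited table each called 2 higher and 2 lower. Of 31 tested autophagy genes 0 passed limma (6 at an unadjusted p under 0.05, 0 by edgeR, 1 higher by DESeq2 and in the authors' deposited table), and the median was -0.072. The smallest p belonged to Optn, an autophagy receptor, with a difference of 0.71 ± 0.24 (limma adjusted p = 0.0736).

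**Figure D5:**
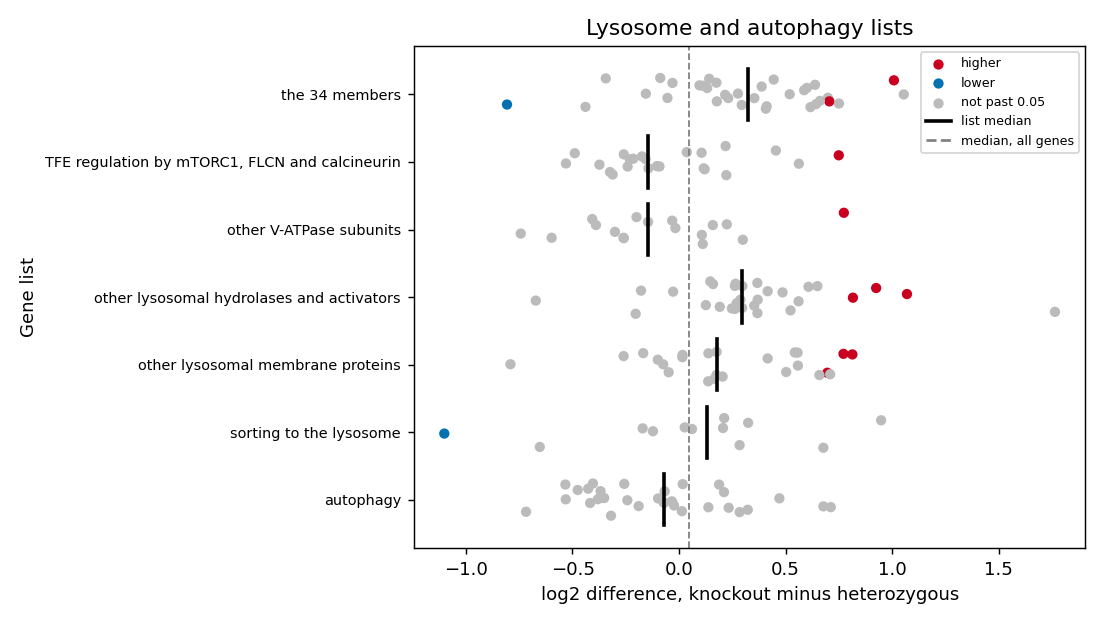
Each point is a gene, placed by its log2 difference (knockout minus heterozygous) within its list, with red for genes called higher, blue for genes called lower and grey for the rest. The black bars are list medians (0.32 for the 34 members, 0.30 for further hydrolases, -0.15 for further V-ATPase subunits) and the dashed line is the median of all genes, 0.046.

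The authors' deposited table called 8 of the members, 7 higher and 1 lower, against 7.44% and 6.83% of its 31628 rows with an adjusted p (14.3% either way). The 7 were Tfeb, Ctsl, Psap, Galc, Ppt1, Scarb2 and Laptm4a, and Atp6v1h was the gene that was lower. Its values were 1.02 ± 0.25 for Tfeb, 0.68 ± 0.24 for Ctsl and -0.80 ± 0.25 for Atp6v1h (log2, SE). Some member exons overlap genes on the other strand, and whether counting used strand is not given in the sources used here. The largest such overlap with an expressed gene was that of Sqstm1 with Mrnip (17.3% of exon length), followed by Ctsb with Fdft1 (12.8%), Hexa with the low Tmem202 (12.8%) and Ctsa with Pltp (10.5%), and Pltp itself had means of 5761 and 18584. Atp6v1h shared 1.30% of its exons with Rgs20, and reads from the 2 strands there cannot be told apart without strand.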

How the data were processed

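HISAT2, featureCounts (Subread), DESeq2 and the build GRCm38 are named, without roles, in the submitters' processing notes. The deposited per-library values are a signal that, as the values show, equals read counts divided by 1 size factor per library. They were whole multiples of 1 step (100% within 0.001 reads), so reads were recovered. The deposited log2 fold change and standard error, p-value, adjusted p-value, and the Wald statistic and weight (each a score) are the authors' own, per the file headers.

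The main test was limma 3.58.1 (R 4.3.3, mean-variance trend) on log2(value + 1) for rows with a mean of at least 10, two-sided, with Benjamini-Hochberg adjustment over all 18227 rows. edgeR 4.0.16 and DESeq2 1.42.0 on recovered reads were alternatives. Differences on this scale understate those of low genes. Exon lengths and coordinates came from GENCODE M21 (GRCm38) and promoters from RefSeq. The limma and edgeR fits, but not DESeq2, were also run on simulated counts, and the outcome is not given here. The design text calls the 3 libraries of a genotype biological replicates.

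Members and lists were chosen with earlier results of these data known. All 34 members are accounted for. Members with an unadjusted p under 0.05 and the TFE factors are given in full, and called genes of each further list are named, or the one with the smallest p. Some called genes of the further hydrolase list are not reported here.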

Additional observations from a re-analysis of the deposited data

How the results depend on the processing

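Over all genes 2883 were called by limma, 4458 with DESeq2, 4514 in the authors' deposited table and 635 to 4019 when 1 library was left out (697, 906 and 635 without knockout B, heterozygous A and heterozygous B). Of the 34 members 3 were called, against 5 with a minimum mean of 50, 7 with DESeq2, 8 in the authors' deposited table, 1 (Tfeb) with a replicate block on the letters, and 0 to 4 with 1 library left out (0 without knockout B, heterozygous A or heterozygous B). Of the further lysosome and autophagy genes 9 were called, against 18 with DESeq2, 20 in the authors' deposited table, 2 with the replicate block and 0 to 11 with 1 library left out. The replicate block gave 2310 calls over all genes, and Ctsl and Atp6v1h were not called with it (adjusted p = 0.0789 and 0.0633). The letters were not taken as pairs in the main fit, because the design text names no factor besides genotype. In a separate check, same-lettered libraries did not deviate together (correlations over genes of -0.072, 0.021 and -0.10 for A, B and C). With 1 library left out, libraries in a group of 2 are assumed to vary like the rest.

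The sign changed for 8 of the 34 members in at least 1 setting. Glb1 was -0.031, but 0.094 with edgeR, 0.15 with upper-quartile scaling, and 0.066 both with DESeq2 and in the authors' deposited table. Grn and Atp6v0d1 were 0.046 and 0.022 with upper-quartile scaling. With 1 library left out, Lamp2 ranged from -0.011 to 0.49, Ctsa from -0.063 to 0.24, Ctsf from -0.0064 to 0.36, Gla from -0.093 to 0.51, Glb1 from -0.28 to 0.36, Grn from -0.22 to 0.043, Atp6v0d1 from -0.27 to 0.11 and Atp6ap1 from -0.048 to 0.27. The cause was not tested. Under the settings that kept all libraries, 281 of 306 member differences held both their direction and their side of the threshold, and with 1 library left out 175 of 204. Depth was not low for the members, which had at least 22 reads in every library (Mitf the lowest).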

Other observations

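Some further genes of the hydrolase, membrane and sorting lists had separated groups without passing limma, and were singled out after their values were seen. Separated groups were common over all genes, with every knockout library above every heterozygous one for 18.5% and below for 20.2%. Among the 137 tested further genes the counts were 24 above and 16 below. Ctsk, cathepsin K, had means of 24.6 and 91.7 normalized reads in heterozygous and knockout libraries (log2 difference 1.77 ± 0.55, SE, limma adjusted p = 0.0575). Cln6, a protein of the endoplasmic reticulum needed for enzyme export, had means of 253 and 472 (adjusted p = 0.0742). Mfsd8, a lysosomal membrane transporter, and Scpep1, a serine carboxypeptidase, were lower in every knockout library, with log2 differences of -0.79 and -0.67 (adjusted p = 0.0632 and 0.0568).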
